A study of Drosophila melanogaster with 10 samples.

Results

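The ISWI, CHD and INO80 nucleosome remodelers were followed through 8 Drosophila melanogaster genes, Iswi, Acf, Nurf-38, E(bx), Chd1, Mi-2, kis and Ino80, taken by gene name from the deposited expression tables. All 8 were found among the 17869 genes of set 1 and again among the 11799 genes of set 2, and all 8 passed the filter on low values in both sets. RNA was sequenced from S2 cells, a cultured line of late embryonic origin that resembles hemocytes (blood cells), after treatment with double-stranded RNA and transfection of plasmids. Every group received the proneural transcription factor Achaete (Ac) together with its partner Daughterless (Da). The study was concerned with how Arp6, an actin-related protein, bears on gene activation by proneural proteins.

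Set 1 held 3 groups of 2 libraries. In H2A.Z KD the histone variant H2A.Z was knocked down and the cells received wild-type Ac (Ac WT). In Luc KD the control double-stranded RNA against Luc was used, either with Ac WT or with the variant Ac R29G. Set 2 held Arp6 KD and its own Luc KD, with 2 libraries each and Ac WT throughout. Set 1 was deposited as table A and table B, each with 1 library of every group of the set, and set 2 as table C. Depth was 24500413 to 33712374 recovered reads per library in set 1 and 9396318 to 10608470 in set 2. The labels do not state whether replicates were grown as separate cultures, and all p-values below therefore describe library-to-library spread, possibly of technical origin alone. In such bulk samples fewer cells of a kind and less RNA per cell cannot be told apart.

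Nucleosome remodelers are ATP-driven enzymes of the SNF2 superfamily that slide, space, eject or rebuild nucleosomes, and so set how open DNA is to other proteins. Iswi is the motor shared by several complexes, among them ACF and CHRAC, which space nucleosomes evenly, and NURF, which slides them at promoters. The CHD enzymes carry chromodomains that bind histone tails, and the INO80 family includes both Ino80 and Domino, the fly enzyme that exchanges H2A.Z into chromatin in a complex that contains Arp6.

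The genes are given in BDGP6 coordinates as the files hold them, with their chromosome arms. Of the ISWI group, Iswi lies on the plus strand of 2R (12636671 to 12640628), Acf on the plus strand of 3R (31793981 to 31799799), Nurf-38 on the minus strand of 2R (24558967 to 24561087) and E(bx) on the minus strand of 3L (233926 to 246912). Of the CHD group, Chd1 lies on the minus strand of 2L (2979562 to 2987723), Mi-2 on the minus strand of 3L (19882051 to 19910215) and kis on the minus strand of 2L (210735 to 250823). Ino80 lies on the minus strand of 3R (19368995 to 19403153). Annotated exons covered 92.1% of the Iswi gene but 15.3% of Ino80, where 5.243 kb of exons are spread over a span of 34159 bases. The introns of Ino80 hold 8 other annotated genes, none of which shares exon sequence with it and none of which exceeded 6.12 scaled reads in any library. Su(Tpl) overlaps Mi-2 on the same strand without shared exon sequence, at 12912 to 16232 scaled reads in set 1. Acf shares 166 bases of exon, 3.27% of its own, with CG42233 on the opposite strand, which had 151 to 396 scaled reads in set 1. Mi-2 shares 161 bases (2.44%) with asRNA:CR43889, which reached 20.8 scaled reads in set 1. kis shares 245 bases with lncRNA:CR44221 and 178 with CG13693. These genes too lie on the opposite strand. No source used here says whether counting was by strand, so reads from these shared bases cannot be assigned to either gene.

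The targeted genes were checked first. His2Av, the gene of H2A.Z, stood at 26.2% (table A) and 13.9% (table B) of the Luc KD library of the same table. Arp6 stood at 79.8% (replicate 1) and 22.0% (replicate 2) of the Luc KD library of the same number in set 2, so the first Arp6 KD library kept most of its target transcript. All 8 hemocyte markers had reads in every group. Their summed level was 220282 to 260169 scaled reads in H2A.Z KD, against 164080.5 to 189190.0 in Luc KD with Ac WT, and 89407 to 90382 in Arp6 KD, against 73225 to 74025 in Luc KD of set 2. By gene, all 8 hemocyte markers were higher, with median log2 differences of 0.44 in H2A.Z KD and 0.18 in Arp6 KD. In H2A.Z KD 2 of the 8 passed in limma and 7 with the block, beside 2.45% and 18.4% of all genes higher. In Arp6 KD none of these markers passed in either fit. The 4 neuron markers summed to 815 to 822 scaled reads in H2A.Z KD, against 822 in both Luc KD libraries with Ac WT. Of these 4, however, 3 were lower in H2A.Z KD, with a list median of -0.24, and none passed in limma with or without the block. The transfected genes also differed between libraries. In H2A.Z KD da stood at 69.6% (table A) and 70.3% (table B) of Luc KD and ac at 81.5% and 105%. In Arp6 KD da stood at 45.9% (replicate 1) and 81.7% (replicate 2) of Luc KD and ac at 48.5% and 92.9%. The part of these differences in the results below was not tested.

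The remodelers differed widely in level, and the highest and lowest genes were the same in all groups. Levels are compared here as scaled reads per kb of annotated exons. In Luc KD with Ac WT of set 1, Nurf-38, which encodes the NURF subunit that is also an inorganic pyrophosphatase, was highest at 3742 ± 346 per kb (SD, n = 2 libraries, as for all means here). The motor gene Iswi followed with 2696 ± 246 per kb. The chromodomain genes kis (1720 ± 4.84 per kb) and Mi-2 (1460 ± 3.90 per kb) came next, above Chd1 (876 ± 35.5 per kb). E(bx), which encodes the large NURF subunit Nurf301, had 826 ± 40.4 per kb and Acf, the partner of Iswi in ACF and CHRAC, had 768 ± 40.5 per kb. Ino80 was lowest of the 8 at 273 ± 23.1 per kb, rank 5228 of 13242 genes with reads, whereas Nurf-38 stood at rank 424.

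Nurf-38, Iswi and, at the other end, Ino80 kept their places in all 5 groups. The ranges of neighbouring genes in the order overlapped in 3 cases, kis with Mi-2 and Chd1 with Acf in H2A.Z KD, and Chd1 with E(bx) in Luc KD with Ac WT of set 1. In the other neighbouring pairs of each group the 2 libraries of one gene lay apart from those of the next. Within set 1, Acf stood above E(bx) in H2A.Z KD, with 900 ± 17.0 against 764 ± 77.2 per kb. In Luc KD of set 1, with Ac WT and with Ac R29G, E(bx) stood above Acf. In set 2 the middle of the order differed: Mi-2 stood above kis, with 716 ± 5.17 against 649 ± 72.1 per kb in Arp6 KD and 771 ± 4.65 against 659 ± 32.6 per kb in Luc KD. Acf likewise stood above Chd1 there, with 392 ± 2.80 against 296 ± 2.96 per kb in Arp6 KD and 378 ± 9.03 against 273 ± 0.0616 per kb in Luc KD. The sets differ in table, scaling and depth, so no test was made between them.

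**Figure D1:**
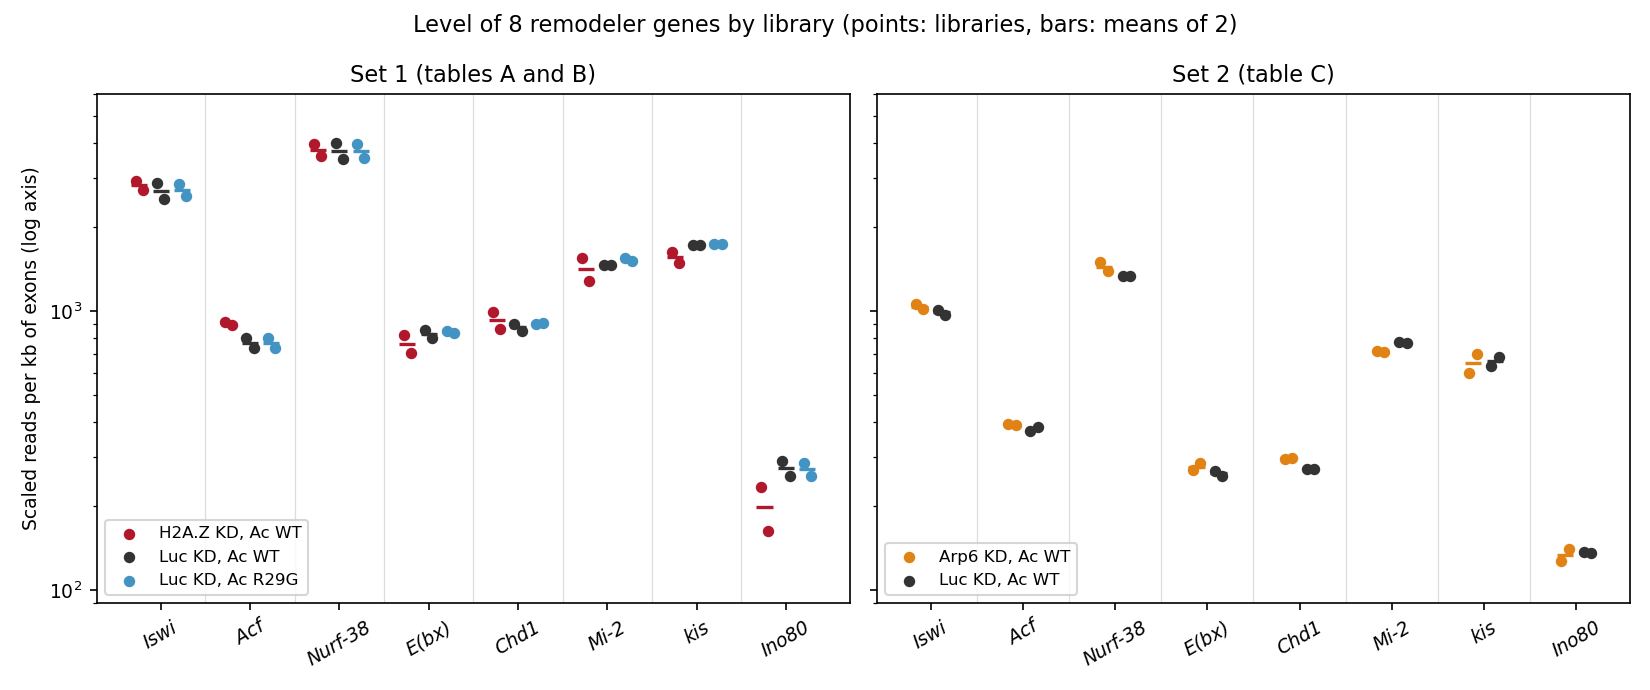
Level of each remodeler gene in scaled reads per kb of exons (log axis) for set 1 (left) and set 2 (right); points are libraries, short bars the means of 2, and colours the groups named in the legends. Nurf-38 and Iswi lie at the top and Ino80 at the bottom in every group, and the H2A.Z KD points of Ino80 lie below the others of set 1.

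The first comparison asked how the remodelers stood when H2A.Z was depleted (H2A.Z KD against Luc KD, both with Ac WT). Ino80 showed the largest difference of the 8 and was lower in H2A.Z KD, Acf was the one gene whose H2A.Z KD libraries both lay above both Luc KD libraries, and the other 6 stayed within 0.15 on the log2 scale. None of the 8 passed at an adjusted p of 0.05 in limma without a block, where 555 of 11942 genes (4.65%) passed, 293 higher (2.45%) and 262 lower (2.19%); 2 of the 8, Acf and Ino80, had an unadjusted p under 0.05. With the table as a block, a fit that compares libraries within table A and within table B, 3 of the 8 passed, Acf higher and kis and Ino80 lower. That share has to be read against 4497 of 11942 genes (37.7%) that passed with the block, 2197 higher (18.4%) and 2300 lower (19.3%). Without the block, leaving out 1 library of table A gave 92 genes (the one from H2A.Z KD), 5 (from Luc KD with Ac WT) or 17 (from Ac R29G). For table B these counts were 6, 4 and 20, and none of the 8 passed in any of the 6 fits. With the block the lowest counts were 2699 genes and 1 of the 8, without the Luc KD library of table B. The groups did not overlap for the same 3 genes, Acf above (25% of all genes) and kis and Ino80 below (27% of all genes), against 52% of all genes in either direction. The median difference of the 8 was -0.02 on the log2 scale, beside -0.01 over all genes tested.

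Among the ISWI genes, the motor Iswi had 10675 (table A) and 9839 (table B) scaled reads in H2A.Z KD, against 10467 and 9196 in Luc KD. The groups overlapped and differed by a log2 difference of 0.06 (95% interval -0.18 to 0.31). Here and below, SEs and intervals of single genes are from limma without the block, apart from the authors' own SEs. Acf, whose product joins Iswi in nucleosome spacing, had 4634 (table A) and 4512 (table B) scaled reads in H2A.Z KD, against 4046 and 3756 in Luc KD. Both H2A.Z KD libraries were above both controls, by 0.20 in table A and 0.26 in table B on the log2 scale. The fitted difference of 0.23 (SE 0.089) had an adjusted p of 0.170 in limma and 0.00438 with the table as a block. With the block, the call of Acf was lost without the Luc KD library of table B (0.22, adjusted p = 0.0594), under quantile normalization (0.12, adjusted p = 0.104) and without an intensity trend (adjusted p = 0.128).

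For the NURF genes the groups overlapped. Nurf-38 had 5859 (table A) and 5290.0 (table B) scaled reads in H2A.Z KD, against 5904 and 5179 in Luc KD, a log2 difference of 0.01 (95% interval -0.25 to 0.27). E(bx) had 8245 (table A) and 7146 (table B) scaled reads in H2A.Z KD, against 8610 and 8035 in Luc KD. Its libraries in H2A.Z KD were lower within each table, and the log2 difference was -0.12 (95% interval -0.35 to 0.12; adjusted p = 0.511 in limma, 0.123 with the block).

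Of the CHD genes, Chd1, an enzyme linked to transcription elongation, had 6498 (table A) and 5673 (table B) scaled reads in H2A.Z KD, against 5914 and 5585 in Luc KD, with a log2 difference of 0.08 (95% interval -0.15 to 0.30). Mi-2, the motor of the repressive NuRD and dMec complexes, had 10205 (table A) and 8432 (table B) scaled reads in H2A.Z KD, against 9620 and 9657 in Luc KD. The 2 tables went opposite ways for Mi-2, by 0.09 in table A and -0.20 in table B on the log2 scale, with an SD of 1253 scaled reads in H2A.Z KD against 25.7 in Luc KD. The log2 difference was -0.06 (95% interval -0.31 to 0.20).

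The trithorax group gene kis, a CHD7-type enzyme and the most heavily counted of the 8, had 31253 (table A) and 28529 (table B) scaled reads in H2A.Z KD, against 33143 and 33011 in Luc KD. Both H2A.Z KD libraries were lower than both controls. The log2 difference of -0.15 (SE 0.096) had an adjusted p of 0.388 in limma and 0.0387 with the block. In the blocked fit that call was lost without the H2A.Z KD library of table B (-0.08, adjusted p = 0.415), without the Luc KD library of table A (-0.18, adjusted p = 0.0690) and without the Luc KD library of table B (-0.12, adjusted p = 0.269). Library-median scaling brought kis to -0.02, and its blocked call was lost there and without an intensity trend. Quantile normalization brought kis to -0.42, where the blocked call was kept.

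Ino80, the motor of the INO80 complex, had 1231 (table A) and 852 (table B) scaled reads in H2A.Z KD, against 1519 and 1348 in Luc KD. Both H2A.Z KD libraries lay below both controls and below both Ac R29G libraries (1502 and 1344). Ino80 stood at 81.1% of its control in table A and 63.2% in table B. The means were 1042 ± 268 in H2A.Z KD and 1434 ± 121 in Luc KD, a log2 difference of -0.48 (SE 0.178, 95% interval -0.90 to -0.06). The adjusted p was 0.156 in limma and 0.000371 with the block. In the blocked fit Ino80 passed in 6 of 6 fits that left out 1 library, with -0.66 without the H2A.Z KD library of table A and -0.30 without that of table B, but it did not pass without an intensity trend (adjusted p = 0.119). Unblocked, the same 2 omissions gave -0.75 and -0.22, neither of which passed (adjusted p = 0.0622 and 0.442 in limma).

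The authors' deposited table of this comparison gave Ino80 a log2 fold change of -0.46 (SE 0.219, p = 0.0359) and Acf 0.23 (SE 0.109, p = 0.0341). For kis the authors' deposited table gave -0.14 (SE 0.0940, p = 0.125). All these p-values of the authors are unadjusted.

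**Figure D2:**
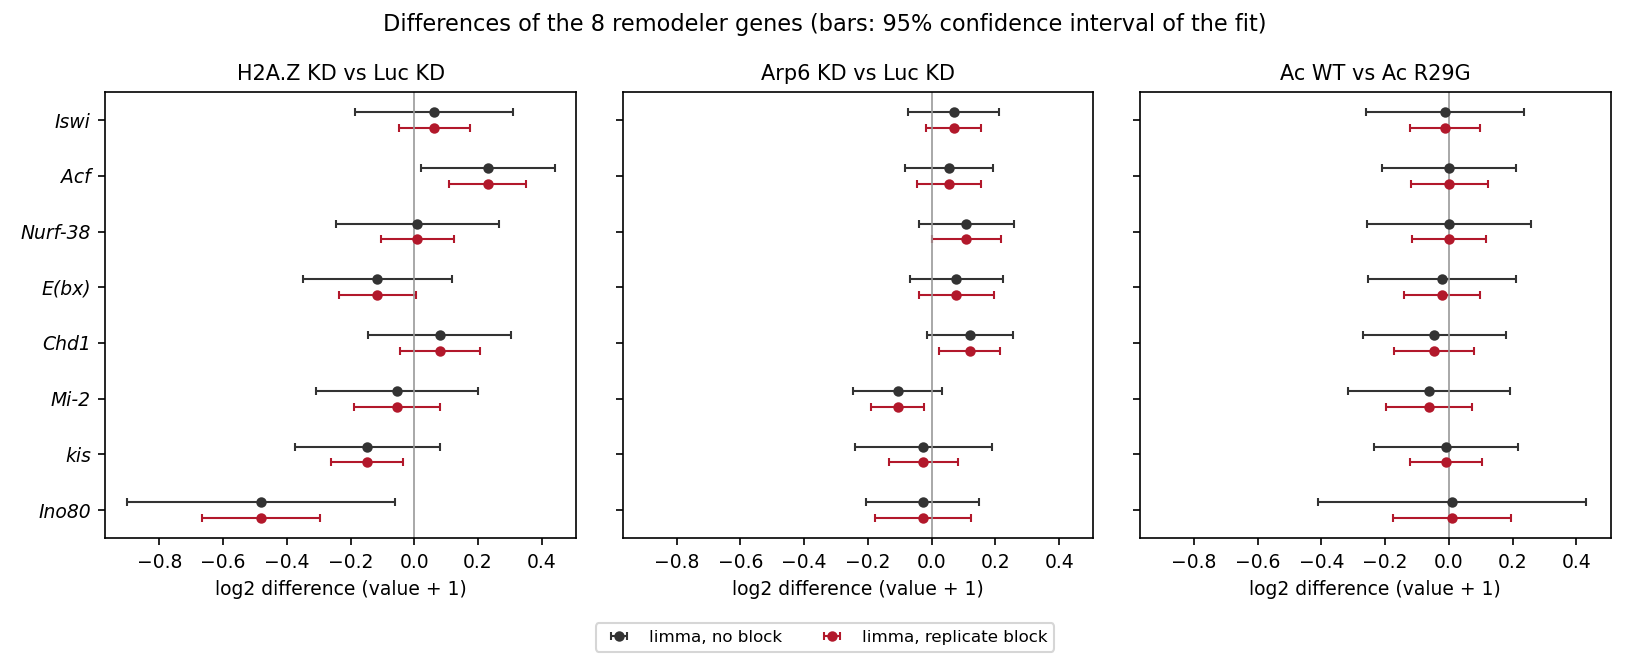
Log2 differences of the 8 genes, on the log2(value + 1) scale, for H2A.Z KD against Luc KD, Arp6 KD against Luc KD and Ac WT against Ac R29G; points are fitted values and bars 95% confidence intervals of limma, without (black) and with (red) the replicate block. In H2A.Z KD the blocked intervals of Acf, kis and Ino80 lie clear of 0; in Arp6 KD those of Nurf-38, Chd1 and Mi-2 do, before any adjustment for the genes tested, and fitted values outside H2A.Z KD run from -0.11 to 0.12.

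How the libraries are scaled mattered for the direction of the other genes. Library-median scaling moved the median of all genes in H2A.Z KD by 0.122 on the log2 scale and gave 787 calls higher and 218 lower in place of 293 higher and 262 lower; TMM scaling gave 234 higher and 340 lower. Relative to the median of all genes under that setting, Ino80 stood at -0.46 under library-median scaling and at -0.47 in the analysis as reported, and Acf at 0.25 and 0.24. Quantile normalization brought Ino80 to -0.39 and Acf to 0.15 relative to its own median. Iswi, Nurf-38, E(bx), Chd1 and Mi-2 each changed sign under at least 1 of 17 alternative settings, while Acf stayed positive and kis and Ino80 negative in all 17. With the block, some of these genes passed under 1 setting or another, in either direction. Under library-median scaling Iswi (0.19, adjusted p = 0.0101) and Chd1 (0.21, adjusted p = 0.0074) were higher in limma. Under quantile normalization E(bx) (-0.28, adjusted p = 0.0010) and Mi-2 (-0.24, adjusted p = 0.0058) were lower. E(bx) and Mi-2 also passed as lower without the H2A.Z KD library of table A (both -0.19, adjusted p = 0.0166 and 0.0165). A share within the 8 genes needs no scaling between libraries. Ino80 made up 1.81% (table A) and 1.39% (table B) of their summed level per kb in H2A.Z KD, against 2.25% and 2.17% in Luc KD. Acf made up 7.01% and 7.62% in H2A.Z KD, against 6.19% and 6.24% in Luc KD.

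**Figure D3:**
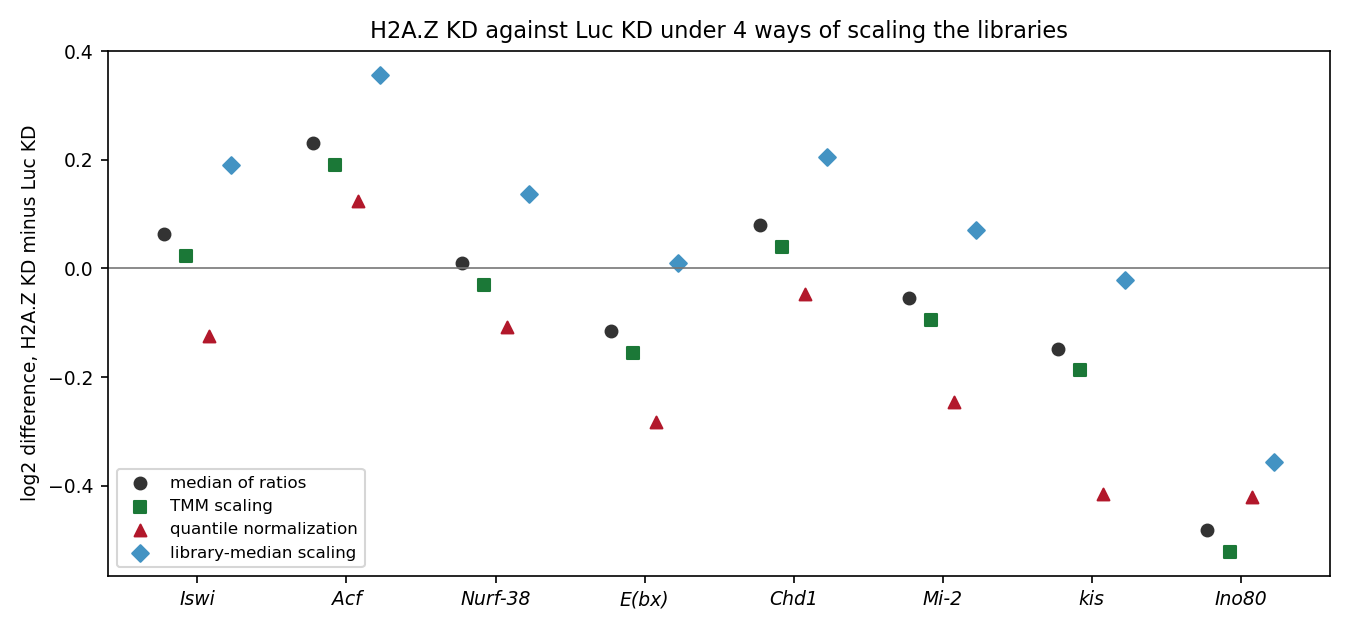
Log2 difference of each remodeler gene, H2A.Z KD minus Luc KD, under 4 ways of putting the 6 libraries of set 1 on one scale. Ino80 lies between -0.52 and -0.36 and Acf between 0.12 and 0.36, while Iswi, Nurf-38, E(bx), Chd1 and Mi-2 have points on both sides of 0.

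Other genes of the same complexes were read from lists chosen with earlier results of these data known. Of 5 further INO80 complex genes, 1 fell in H2A.Z KD and none rose, where 2.19% of all genes fell; with the block 3 fell, where 19.3% of all genes did. The list median was -0.18, beside -0.01 over all genes. The one was Arp5, an actin-related protein found in INO80, with 428 (table A) and 344 (table B) scaled reads in H2A.Z KD, against 673 and 694 in Luc KD. Its groups did not overlap, with a log2 difference of -0.83 (SE 0.137, adjusted p = 0.0301 in limma, 1.11e-05 with the block). Unblocked, Arp5 passed without the H2A.Z KD library of table A (-0.99, adjusted p = 0.0483) but not without any other 1 of the 6 libraries, where adjusted p ran up to 0.148. The helicases pont (-0.21, adjusted p = 0.222 in limma, 0.0218 with the block) and rept (-0.18, adjusted p = 0.384 in limma, 0.0437 with the block), which INO80 shares with the Domino complex, passed only with the block. Arp8 had -0.15 and the DNA-binding subunit pho 0.01, and neither passed in either fit.

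Of 8 other SNF2-type ATPases, 1 fell in H2A.Z KD and none rose, beside 2.19% of all genes lower and 2.45% higher. With the block 3 rose and 4 fell, beside 18.4% of all genes higher and 19.3% lower. Marcal1, an annealing helicase of the SMARCAL1 type, had 565 (table A) and 575 (table B) scaled reads in H2A.Z KD, against 970 and 1037 in Luc KD. The log2 difference was -0.81 (SE 0.101, adjusted p = 0.0191 in limma, 1.29e-06 with the block). Unblocked, it passed in 0 of 6 fits that left out 1 library, where its difference ran from -0.86 to -0.77 and its adjusted p from 0.0544 to 0.124. The Rad54 gene okr (-0.40), brm (-0.16) and Etl1 (-0.19) were the others that fell with the block, and Hel89B (0.26), dom (0.23) and lds (0.16) rose with it. The list median was -0.05.

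Of 6 further genes of ISWI-type complexes and their relatives, none passed without the block and 1 rose and 2 fell with it, in a fit where 37.7% of all genes passed. These were CtBP (0.29), tou (-0.27), which encodes the Toutatis subunit, and CG8677 (-0.16). Of 7 NuRD, dMec and Chd3 genes, again none passed without the block, and with it Chd3, a smaller relative of Mi-2, rose (0.43) and MTA1-like fell (-0.18), against the same 37.7% of all genes. The medians of these lists were 0.03 and 0.0039. Every related gene that passed in either fit kept its direction in 11 of 11 other planned settings that kept all libraries of the 2 groups compared. The blocked calls themselves depended on scaling: pont, rept, brm, Etl1, CG8677 and MTA1-like did not pass under library-median scaling, CtBP, dom, lds and Hel89B did not under quantile normalization, and no gene passed without an intensity trend. They depended on single libraries too. With the block, rept passed in 0 of 6 fits that left out 1 library, and lds only without the H2A.Z KD library of table A. The calls of brm, Etl1, CG8677 and MTA1-like were lost without the H2A.Z KD library of table B and without either Luc KD library with Ac WT, and that of pont without either of these Luc KD libraries.

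**Figure D4:**
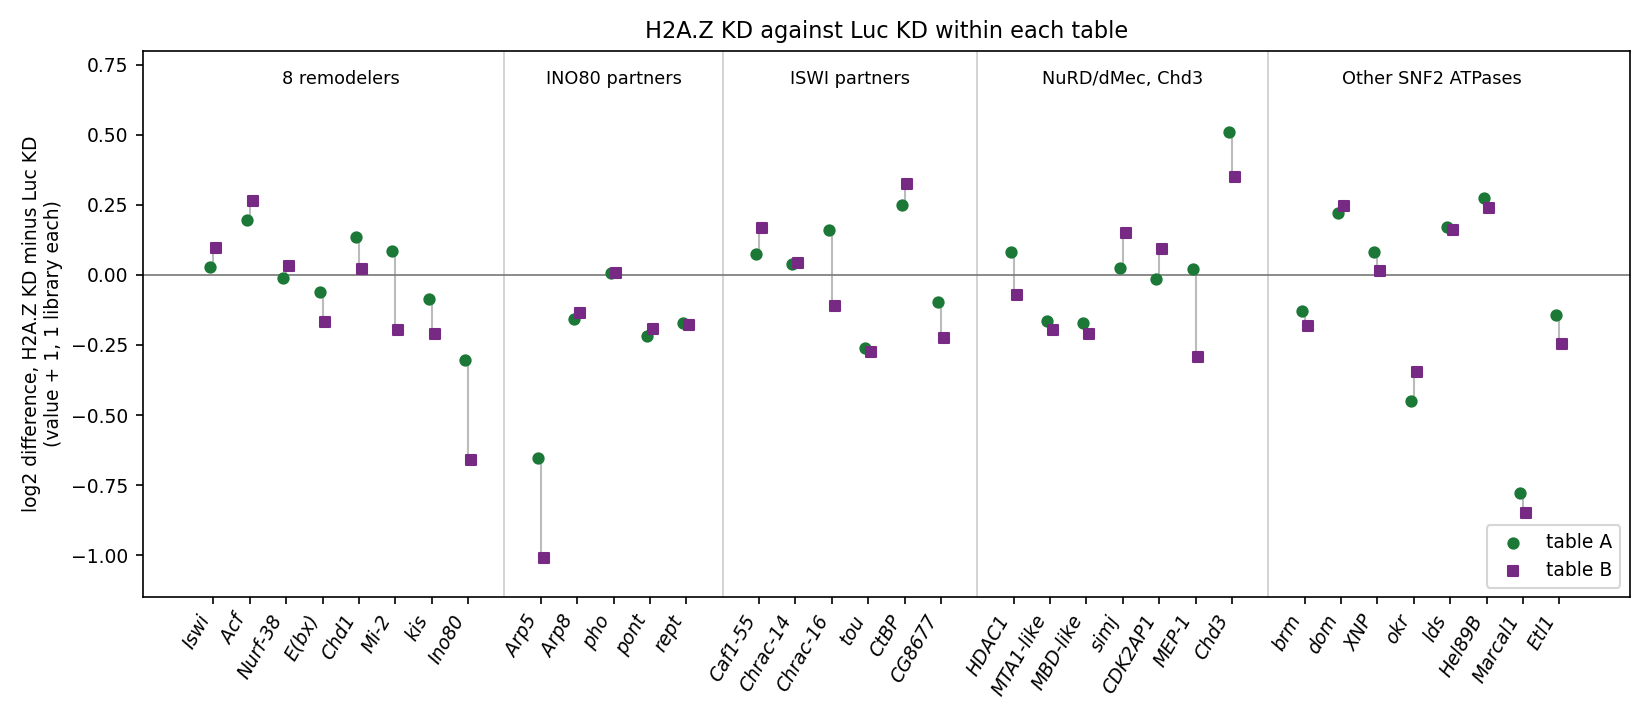
Log2 difference of H2A.Z KD minus Luc KD within table A (circles) and table B (squares), 1 library against 1, for the 8 remodelers and the 4 lists of related genes. Arp5, Marcal1 and Ino80 have the lowest points, and Mi-2 is one of the genes whose tables lie on opposite sides of 0.

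The second comparison set Arp6 KD against Luc KD in set 2. The remodelers stood close to their controls, Chd1 highest with a log2 difference of 0.12 and Mi-2 lowest with -0.11. None of the 8 passed in limma (adjusted p 0.702 to 0.949), where 3 of 10605 genes (0.0283%) passed and 739 had an unadjusted p under 0.05; edgeR called 3 genes and DESeq2 called 16, none of them among the 8. Limma called 0 genes without either Luc KD library, and 5 and 4 without the first and the second Arp6 KD library. With the replicate number as a block, none of the 8 and 0 of all genes (0%) passed in limma, although Nurf-38, Chd1 and Mi-2 had an unadjusted p under 0.05 there (adjusted p 0.255 to 0.316). edgeR with the same block called 870 of 8087 genes, again none of the 8. Without the block the 95% intervals of the 8 ran from -0.25 to 0.26 in all. The median of the 8 was 0.06, beside -0.01 over all genes tested.

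The groups did not overlap for 6 of the 8 genes, against 39.1% of all genes. For 5 of these, Iswi, Acf, Nurf-38, E(bx) and Chd1, Arp6 KD was above Luc KD (18.6% of all genes), and for Mi-2 it was below (20.4% of all genes). Chd1 had 1932 (replicate 1) and 1960 (replicate 2) scaled reads in Arp6 KD, against 1790 and 1791 in Luc KD. Its log2 difference was 0.12 (SE 0.059, 95% interval -0.02 to 0.26). Mi-2 had 4749 (replicate 1) and 4701 (replicate 2) scaled reads in Arp6 KD, against 5110 and 5066 in Luc KD, a log2 difference of -0.11 (SE 0.060, 95% interval -0.25 to 0.03). Replicates of one group lay closer together than the groups for both genes, in a design of 2 against 2.

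The ISWI genes of set 2 had small positive differences. Iswi had 3849 (replicate 1) and 3713 (replicate 2) scaled reads in Arp6 KD, against 3678 and 3530 in Luc KD, a log2 difference of 0.07 (95% interval -0.07 to 0.21). Nurf-38 had 2210 and 2057 in Arp6 KD, against 1977 and 1975 in Luc KD, a difference of 0.11 (95% interval -0.04 to 0.26). Acf stood at 0.05 and E(bx) at 0.08 on the same scale. Under quantile normalization Iswi turned to -0.0035, so its direction depends on the scaling. The same setting brought Acf to 0.01, E(bx) to 0.0049 and Nurf-38 to 0.06. The median of the 8 was then 0.0007, with 4 positive and 4 negative.

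Ino80, which stood lowest relative to control in H2A.Z KD, had 666 (replicate 1) and 737 (replicate 2) scaled reads in Arp6 KD, against 716 and 712 in Luc KD. The groups overlapped, and the log2 difference was -0.03 (95% interval -0.20 to 0.15). The 2 replicates went opposite ways, by -0.10 and 0.05. In the second replicate, where Arp6 was at 22.0% of control, Ino80 was at 103% of control, 1 library against 1. Whether the Ino80 level follows the depth of the Arp6 knockdown was not tested. For kis the groups also overlapped, with 11508 and 13469 scaled reads in Arp6 KD, against 12237 and 13124 in Luc KD, a log2 difference of -0.03 (95% interval -0.24 to 0.19). Of the 26 related genes in the 4 lists none passed in limma with or without the block. The farthest from 0 in each list were Chrac-14 (-0.17), MEP-1 (0.15), Arp8 (-0.07) and okr (-0.27). MEP-1 had only 26 to 38 recovered reads per library, and its replicates went opposite ways. The difference between the Ino80 values of the 2 knockdowns was not tested, because the sets were scaled and fitted apart.

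The last comparison set Ac WT against Ac R29G under Luc KD. The remodelers were nearly level: the 8 differences ran from -0.06 (Mi-2) to 0.01 (Ino80) on the log2 scale, 3 positive and 5 negative, with a median of -0.01 beside -0.01 over all genes. None of the 8 passed in limma (adjusted p = 0.9999 for each), where 0 of 11942 genes (0%) passed; 240 genes had an unadjusted p under 0.05, DESeq2 called 8 and edgeR 0. In the fit blocked by table, 74 genes (0.62%) and none of the 8 passed (adjusted p 0.986 to 0.9998). That count became 325 and 301 without the H2A.Z KD library of table A and of table B, and 131 without the Ac R29G library of table A, still with none of the 8. The 95% intervals ran from -0.41 to 0.43 without the block and from -0.20 to 0.20 with it. The widest of these belonged to Ino80.

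The groups did not overlap for 3 of the 8, Chd1, Mi-2 and kis, all lower with Ac WT (11.9% of all genes; 23.4% in either direction). Mi-2 had 9620 (table A) and 9657 (table B) scaled reads with Ac WT, against 10169 and 9961 with Ac R29G. Its difference of -0.06 (95% interval -0.32 to 0.19) was the farthest from 0. For kis the gap was narrow, with 33143 and 33011 scaled reads with Ac WT, against 33239 and 33317 with Ac R29G. None of the 26 related genes passed in limma with or without the block. The farthest from 0 were Chrac-16 (-0.05), MEP-1 (0.08), Arp5 (0.16) and Marcal1 (0.22). This comparison and that of H2A.Z KD share the Luc KD libraries with Ac WT, so a high or low value there enters both, and Arp5 and Marcal1 in those libraries lay above the Ac R29G libraries as well.

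Across all 10 libraries the remodelers other than Ino80 had less spread than the median gene, in a ranking that was not matched for read level. The spread of a gene was taken as the root mean square of its log2 values after centring within each set, over 6758 genes with a mean of at least 50 in both sets. Ino80 had a spread of 0.220, above 79.3% of these genes, and the other 7 had 0.0660 (Chd1) to 0.0944 (Acf), below the median gene at 0.141. Ino80 spanned 0.833 on the log2 scale within set 1 and 0.145 within set 2. Among the remodelers Ino80 also had the fewest reads. The part of read level in these spreads was not tested, so they are not read as a trait of remodelers.

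Genes whose pattern over the 10 libraries lay nearest to each remodeler were found by the smallest root mean square difference of the centred log2 values among 6757 other genes. Nearest to Ino80 were Trs31 (0.0343) and Nf1 (0.0387), where the median gene differed by 0.237. Nearest to Iswi were CG3251 (0.0220) and woc (0.0234), and to Acf Lis-1 (0.0241) and CG3071 (0.0274). For Nurf-38 they were Svil (0.0233) and CG4768 (0.0246), and for E(bx) Clbn (0.0271) and Cul2 (0.0277). For Chd1 they were CG6700 (0.0237) and fs(1)h (0.0268), for Mi-2 ZnT86D (0.0326) and Dyrk3 (0.0331), and for kis mask (0.0252) and CG9646 (0.0295). No remodeler was among the nearest pair of another. All values share the same libraries and scaling, and with so few groups many genes come close to a flat pattern.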

How the data were processed

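The authors deposited library values as size-factor-scaled reads, a signal per gene, and 2 comparison tables with log2 fold changes, standard errors and p-values, per the file headers. Partek and the genome BDGP6 are named in the submitters' processing notes; no source used here gives the aligner, counter or strand setting. Dividing by the smallest positive value recovered whole reads for 100% of values (tolerance 0.001 reads). The 6 libraries of tables A and B, whose columns have no replicate numbers, were rescaled together by the median of ratios; table C kept its deposited values.

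limma 3.58.1 (R 4.3.3) with an intensity trend was fitted to log2(value + 1), which understates changes of low genes. Genes needed a mean of 1 or more, p-values were adjusted by Benjamini-Hochberg over all genes, and the threshold was 0.05. All 3 groups of set 1 entered 1 fit. The design named edgeR for raw counts and limma for scaled values, hence limma. As alternatives, recovered reads were fitted with edgeR 4.0.16 and DESeq2 1.42.0. Within-table correlations of deviations from the group means were 0.62, 0.58 and 0.65 (9103 genes). Set 1 was therefore read as paired by table, from the shared tables and the data, not from labels. The fit without the block does not use this pairing, and it gave the SEs and 95% intervals printed for single genes in the text. The script was tested on simulated data. That simulation held no table or replicate effect, so it does not check the calls of the blocked fit. Exon lengths came from the BDGP6 annotation, where 17790 of 17869 identifiers were found; Ino80 was matched by name and identical coordinates. Python 3.11.15 and pandas 2.3.3 handled tables.

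The members and lists were chosen with earlier results of these data known. Named genes are all 8 members, the called genes and the largest difference of each list, the 2 nearest genes in pattern, and the knockdown and transfection checks.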

Additional observations from a re-analysis of the deposited data

How the results depend on the processing

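Over 17 alternative settings (14 for Arp6 KD) the 8 remodelers gave 136 values for Ac WT against Ac R29G, of which 121 kept their direction and side of the threshold and 15 changed sign without a call. For H2A.Z KD 119 of 136 were kept, 6 newly passed (Acf, kis and Ino80 with the replicate block in limma and in edgeR) and 11 changed sign without a call. For Arp6 KD 106 of 112 were kept and 6 changed sign without a call. None of the 8 passed in the analysis as reported, so no called value could reverse.

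The number of genes called moved more. For Ac WT against Ac R29G it was 0 in limma, 74 with the replicate block, 141 in edgeR with the replicate block and 8 in DESeq2. For H2A.Z KD it was 555, and 4497 with the replicate block (3 of the 8 remodelers), 4671 in edgeR with the replicate block (3 of the 8), 1383 in DESeq2, 1005 under library-median scaling, 2 without a trend and 20 when only the groups compared were fitted. For Arp6 KD it was 3, and 0 with the replicate block, without a low-value filter, under quantile normalization and without a trend, 1 under TMM scaling, 16 in DESeq2 and 870 in edgeR with the replicate block. Leaving out 1 library without the block gave 0 genes in each fit for Ac WT against Ac R29G, 4 (without the Luc KD library of table B) to 92 (without the H2A.Z KD library of table A) for H2A.Z KD with 0 of the 8, and 0 to 5 for Arp6 KD. The cause of these shifts was not tested.

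Some alternatives were added after seeing the data. The replicate block without a trend called 0 genes in each comparison. With library-median scaling the block called 94 genes for Ac WT against Ac R29G, 4527 for H2A.Z KD (4 of the 8) and 9 for Arp6 KD. With quantile normalization it called 63, 3813 (4 of the 8) and 22. Leaving out 1 library with the block gave 52 to 325 genes for Ac WT against Ac R29G and 2699 to 4861 for H2A.Z KD with 1 to 5 of the 8 remodelers. Here 1 of the 8 passed without the Luc KD library of table B and 5 without the H2A.Z KD library of table A. Where an omission left 1 library in a group, that library was assumed to vary like the others. In set 2 same-numbered libraries correlated at 0.50 (7976 genes) over only 2 pairs, so the fit without the block stayed the main one there.

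Ino80 rests on 653 to 1783 recovered reads per library, the fewest of the 8, and 2 libraries per group limit what any of these tests can resolve.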
